A study of Mus musculus with 12 samples.

Results

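Collagens are the main structural proteins of the extracellular matrix, and 44 of the 56350 genes in the table carry a collagen chain symbol. They were taken by name, as every gene whose symbol reads Col, a number, a, and a number (Col1a1, Col12a1). They were grouped by the structure their chains form into 11 fibrillar, 9 network, 9 FACIT, 6 beaded filament, 4 transmembrane and 2 multiplexin collagens and 3 others. Polyadenylated RNA was sequenced from the left ventricular apex of mice at 8 weeks after surgery, in 4 groups of 3 libraries. Control mice were heterozygous for lincRNA-p21, so that they carried 1 mutant allele, and the knockout mice were their littermates that lacked lincRNA-p21 in the whole body. Each genotype had either sham surgery or TAC, a narrowing of the transverse aorta that raises the pressure against which the left ventricle pumps. The groups are named by genotype and surgery, such as control sham. No group of wild-type mice is among the 12 libraries, and age and sex are not in the labels used here.

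A collagen molecule is an assembly of chains wound into a helix, and many collagens need chains from several genes. Fibrillar collagens of types I, III and V build the fibres between heart muscle cells, and the type V chains are known to govern how fibrils start and how thick they grow. Type IV chains build the sheet-like basement membrane around vessels and muscle cells, type VI forms beaded filaments beside it, and FACIT collagens such as type XII lie on the surface of fibrils. In the heart, fibroblasts are the main source of fibrillar collagen, while endothelial, perivascular and muscle cells contribute to the basement membrane. Build-up of collagen between muscle cells, called fibrosis, is a known feature of hearts under lasting pressure overload.

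Levels are given as normalised read counts, which are the reads of a gene divided by 1 size factor per library, and values in a group are listed from replicate 1 to replicate 3. Whole libraries held from 10323605 to 13238934 reads. Of the 44 collagen genes, 30 had 3 or more libraries with a value of 10 or above and were tested, among 13916 such genes in the table. Col8a2 met that minimum only through the control TAC libraries and therefore had to differ. Its values are given without a test, and counts over the tested collagens, which include it, are given as descriptions. The targeted gene Trp53cor1, which encodes lincRNA-p21, was at 0 in all 6 knockout libraries, but it ranged only from 0 to 2.13 in control sham and from 0 to 4.33 in control TAC, which is too low to check each label. The labels do not say whether libraries came from separate animals, so the p-values measure the spread between these libraries. The control sham library of replicate 3 stood apart from the rest on the second principal component of all tested genes (-46.8, against -15.6 to 33.7 for the other libraries).

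Collagen genes held 2207, 2091 and 3034 RPM (reads per 1000000 reads of the library) in control sham and 2921, 3445 and 2659.5 in control TAC. In knockouts they held 1825, 1963 and 2237 RPM after sham and 1857, 1958 and 2127 after TAC. Control sham replicate 3 overlapped with control TAC, whereas each control TAC library lay above every knockout TAC library. Network collagens gave 47.7% of all collagen reads and fibrillar collagens 29.3%. Beaded filament collagens followed with 14.6%, multiplexins with 6.47%, FACITs with 1.57%, transmembrane collagens with 0.257% and the others with 0.138%. The FACIT sum was 60.1, 72.2 and 60.5 RPM in control TAC and 22.2 to 40.1 in the other 9 libraries, and the fibrillar sum was 911, 1015 and 844 against 518 to 832. Per kilobase of transcript and per 1000000 reads, the mean level in control sham was 94.0 for Col4a1 and 74.0 for Col4a2, above 43.4 for Col3a1, 36.2 for Col6a1, 26.2 for Col1a2 and 23.9 for Col1a1. On the same scale the genes with the widest changes described below were far lower, at 3.27 for Col8a1, 0.0822 for Col8a2 and 0.0763 for Col12a1 in control sham.

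**Figure D1:**
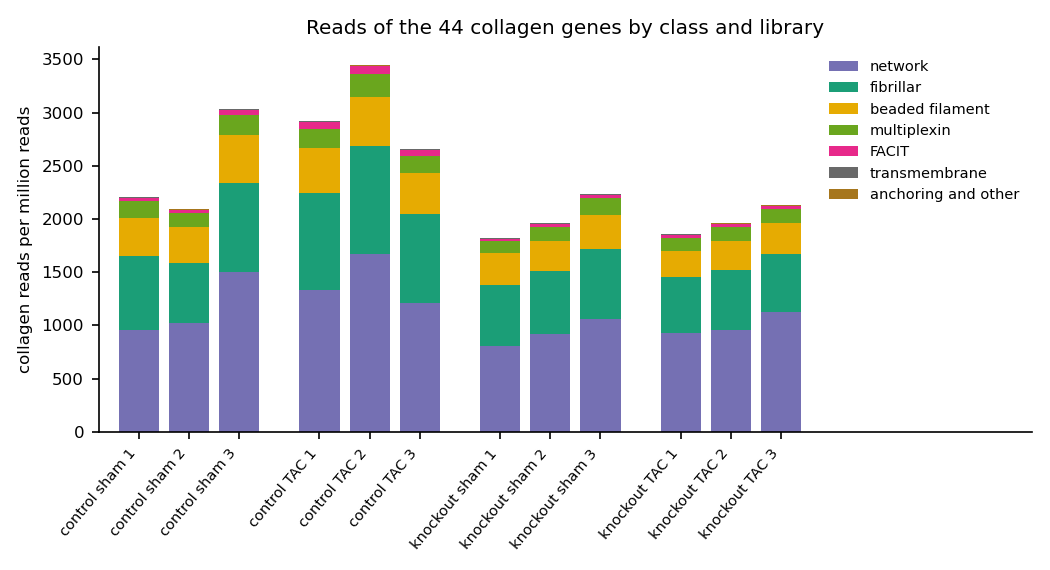
Reads of the 44 collagen genes in RPM (vertical axis) in each of the 12 libraries (horizontal axis), stacked by collagen class. The control TAC bars reach 2659.5 to 3445, the knockout TAC bars 1857 to 2127, and control sham replicate 3 reaches 3034.

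In control mice, TAC against sham raised 11 of the 30 tested collagen genes and lowered none, with Col8a2 counted among the 11 (limma on log2 of the value plus 1, Benjamini-Hochberg adjusted over all tested genes at 0.05). Over all tested genes, 11.0% rose and 10.6% fell. The genes that rose were Col1a2, Col3a1 and Col5a2 among 8 tested fibrillar collagens, Col4a3, Col4a4, Col4a5, Col8a1 and Col8a2 among 7 network collagens, Col12a1 and Col22a1 among 5 FACITs, and Col6a3 among 4 beaded filament collagens. No multiplexin, transmembrane or other collagen passed. The median difference was 0.41 on the log2 scale for the tested collagens and 0.01 for all tested genes. Libraries of both groups did not overlap for 12 collagens that were higher after TAC and for 1 that was lower, against 17.7% of all tested genes in each direction. Fewer cells of a type and less RNA per cell cannot be told apart in these bulk samples.

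In knockout mice, TAC against sham raised or lowered none of the 30 collagen genes by limma, where 0.00719% of all tested genes rose and 0% fell. Unadjusted p-values were under 0.05 for 4 of the 30 collagens and for 929 of all 13916 tested genes. On the recovered reads, edgeR and DESeq2 also called 0 collagens. Over all tested genes edgeR called 0.00719% up and 0.00% down, and DESeq2 called 0.115% up and 0.0503% down. The median difference of the collagens was -0.10 and that of all tested genes -0.01. Knockout TAC libraries all lay above the knockout sham libraries for Col4a3 and Col8a1, and all below them for Col6a6, Col16a1 and Col18a1, against 8.31% of all tested genes higher and 8.87% lower.

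**Figure D2:**
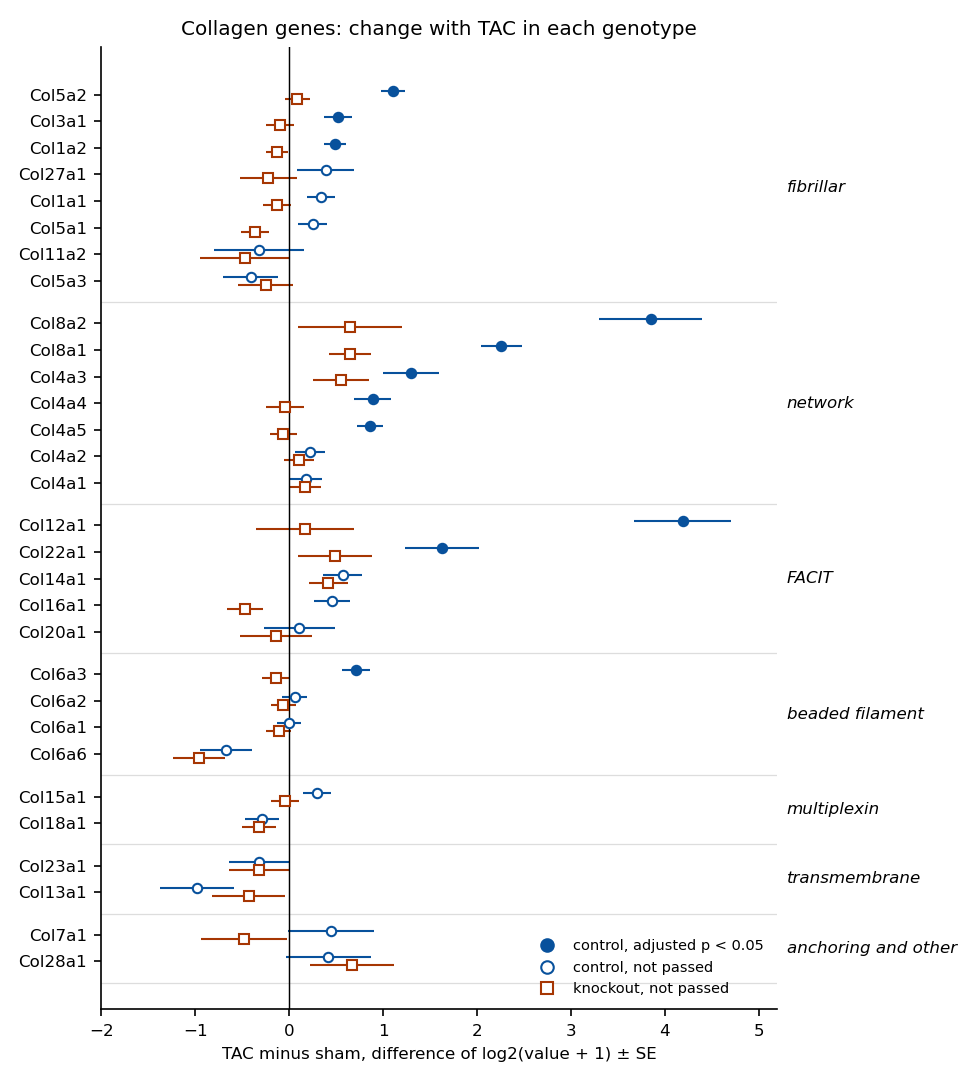
Difference between TAC and sham for each of the 30 tested collagen genes (horizontal axis, log2 of value plus 1, with standard error), in control and in knockout mice, 3 libraries per group, grouped by collagen class. The 11 filled control points lie between 0.49 and 4.19, and the knockout points between -0.96 and 0.67. One filled point is Col8a2 (3.85), which met the minimum only through control TAC and is given without a test in the text.

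The fibrillar collagen with the largest rise was Col5a2, a chain of the type V collagen that takes part in starting fibrils. Its values were 428, 424 and 378 in control sham and 885, 946 and 838 in control TAC, with 414, 341 and 439 in knockout sham and 399.8, 461 and 408 in knockout TAC. Every control TAC library was thus above all 9 other libraries, which overlapped with each other. Col5a2 rose 2.17-fold in controls (log2 difference 1.11 ± 0.13 (SE), adjusted p = 6.7e-05), against a log2 difference of 0.09 ± 0.13 in knockouts (adjusted p = 0.93). Knockout TAC was 2.10-fold lower than control TAC (log2 difference -1.07 ± 0.13, adjusted p = 0.00041).

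Col3a1 encodes the chain of type III collagen, and Col1a1 and Col1a2 the chains of type I collagen, the bulk of the fibres in scar tissue. Col3a1 stood at 3247, 2257 and 2701 in control sham and at 3644, 4395 and 3620.2 in control TAC, against 2836, 2585 and 2854 in knockout sham and 2649, 2898 and 2199.8 in knockout TAC. The control TAC libraries were the 3 highest, with a log2 difference from control sham of 0.52 ± 0.15 (adjusted p = 0.023). The call on Col3a1 rests on single libraries: without control sham replicate 2 or without control TAC replicate 2 it was lost, with an adjusted p of up to 0.11, and also when only the 6 control libraries were fitted. Col1a2 measured 1715, 1460.2 and 1591 in control sham, 2239.6, 2400.0 and 2067 in control TAC, 1396, 1456 and 1448 in knockout sham and 1269.8, 1409.7 and 1247 in knockout TAC. It rose by a log2 difference of 0.49 ± 0.12 in controls (adjusted p = 0.0085; adjusted p = 0.057 when only the 6 control libraries were fitted) and was lower in knockout TAC than in control TAC by -0.77 ± 0.12 (adjusted p = 0.0018).

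Col1a1 had values of 1595, 1321 and 1855 in control sham and 1973, 2346 and 1712 in control TAC, and these groups overlapped. Knockout sham was at 1201, 1287 and 1294 and knockout TAC at 1049.6, 1154 and 1264. The difference with TAC in controls did not pass (log2 difference 0.34 ± 0.15, adjusted p = 0.11), but knockout TAC was lower than control TAC (-0.79 ± 0.15, adjusted p = 0.0068). Col5a1, the partner chain of Col5a2, had 717, 616 and 767 in control sham, 813, 1000.2 and 695 in control TAC, 584, 692 and 732 in knockout sham and 475, 491 and 601 in knockout TAC. Its control groups overlapped (log2 difference 0.25 ± 0.15, adjusted p = 0.27), and knockout TAC was lower than control TAC (-0.67 ± 0.15, adjusted p = 0.017).

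The other tested fibrillar collagens passed in no comparison. Col27a1 was at 75.6, 57.9 and 163 in control sham, 99.5, 123 and 134 in control TAC, 98.7, 76.6 and 78.7 in knockout sham and 61.8, 66.5 and 90.5 in knockout TAC, so that control TAC lay above both knockout groups while control sham overlapped with each other group. Col5a3, another type V chain, ranged from 397 to 1084 and Col11a2, known from cartilage, from 12.2 to 83.1 over the 12 libraries, each with its highest value in control sham replicate 3.

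**Figure D3:**
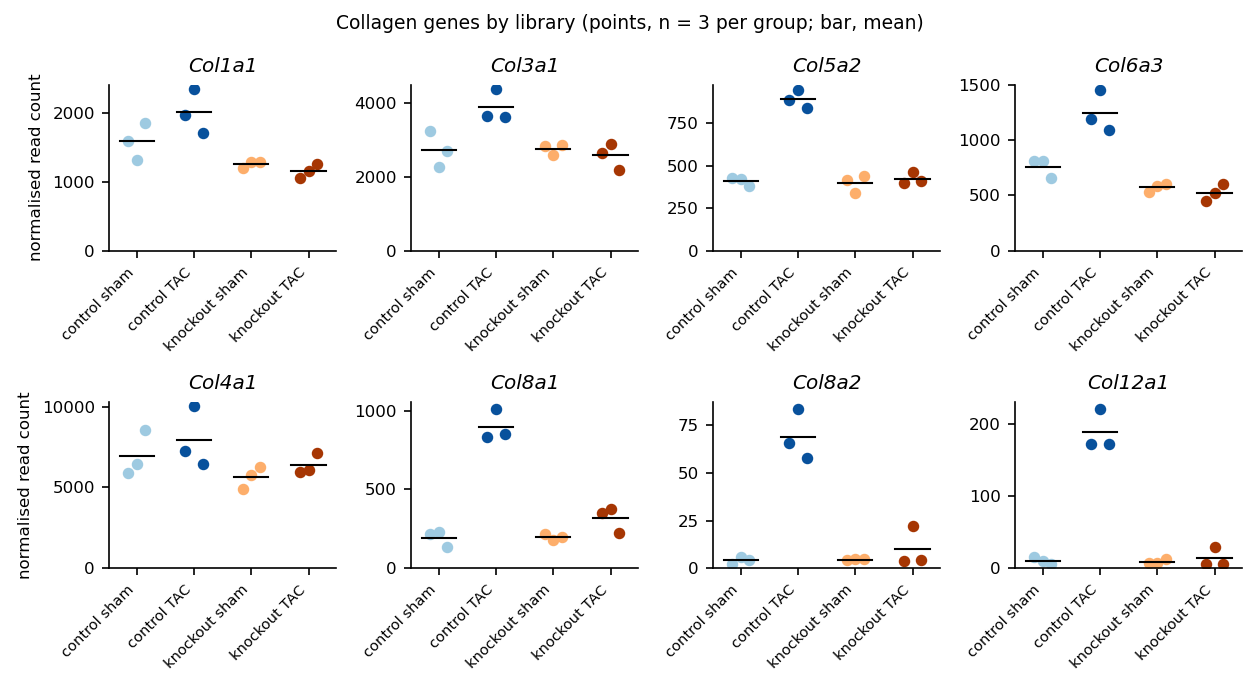
Normalised read count (vertical axis) of 8 collagen genes in each library (points) with the group mean (bar), 3 libraries per group. Col5a2, Col8a1, Col8a2 and Col12a1 have all control TAC points above every other point, while the Col4a1 groups overlap.

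Among network collagens, the 2 chains of type VIII collagen, a short-chain collagen of vessel walls and the cornea, had the largest changes. Col8a1 measured 217, 229 and 131 in control sham and 833, 1013 and 850.3 in control TAC. In knockouts it was at 214, 179 and 198 after sham and 349.5, 378 and 221 after TAC, so that knockout TAC lay above knockout sham and below control TAC without overlap. Col8a1 rose 4.78-fold in controls (log2 difference 2.26 ± 0.22, adjusted p = 1.4e-05), while its log2 difference in knockouts was 0.65 ± 0.22 (adjusted p = 0.63). After TAC it was 2.90-fold lower in knockouts than in controls (log2 difference -1.53 ± 0.22, adjusted p = 0.0011).

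Col8a2 was close to the detection limit outside control TAC, at 2.13, 5.70 and 4.24 in control sham, 4.07, 4.56 and 4.52 in knockout sham and 3.86, 22.2 and 4.36 in knockout TAC. In control TAC it was at 66.0, 83.4 and 57.8. Every control TAC library was thus above all others. The log2 difference was 3.85 for control TAC against control sham and -3.03 for knockout TAC against control TAC, given without a test because the gene entered the tested set through control TAC alone. Knockout TAC replicate 2, at 22.2, held most of the Col8a2 signal of its group.

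The promoters of both type VIII genes were read from RefSeq (GRCm38.p6), which gave a window of 250 bases before to 50 bases after the start for 35 of the 44 genes. They are shown 5′ to 3′ on the strand of the gene, with matches to the GC box (GGGCGG), the SMAD-binding element (CAGAC), the CCAAT box (CCAAT) and the TATA box (TATAAA), on either strand, in capitals. The Col8a1 window lies at chr16:57754688-57754987 on the minus strand, and the Col8a2 window at chr4:126286544-126286843 on the plus strand.
Col8a1: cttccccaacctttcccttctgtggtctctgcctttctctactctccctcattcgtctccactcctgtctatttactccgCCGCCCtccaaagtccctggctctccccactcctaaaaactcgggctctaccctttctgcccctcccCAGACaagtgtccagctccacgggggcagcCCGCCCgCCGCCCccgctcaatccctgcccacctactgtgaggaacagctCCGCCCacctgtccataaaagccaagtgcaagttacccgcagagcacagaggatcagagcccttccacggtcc
Col8a2: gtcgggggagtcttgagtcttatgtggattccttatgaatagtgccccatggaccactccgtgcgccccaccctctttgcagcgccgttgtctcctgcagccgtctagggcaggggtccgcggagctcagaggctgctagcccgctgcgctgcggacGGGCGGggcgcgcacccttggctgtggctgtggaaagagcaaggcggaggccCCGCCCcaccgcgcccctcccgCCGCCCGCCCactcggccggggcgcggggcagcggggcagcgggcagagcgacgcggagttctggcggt
Each window holds 4 GC box matches, and neither holds a TATA or CCAAT box match. The nearest GC box match begins 23 bases before the start in Col8a1 and 15 bases before it in Col8a2, where it overlaps a match that begins 19 bases before the start. Col8a1 also has a SMAD-binding element match 103 bases before the start, which Col8a2 lacks. GC box letters occur in 35.7% of all 32851 promoter windows and in 23 of the 38 windows of collagen genes, which belong to 22 of the 35 genes. Of the other motifs, CAGAC was found in 20 of the 38 collagen windows (49.6% of all windows), CCAAT in 13 (37.4%) and TATAAA in 5 (13.6%). The AP-1 site (TGANTCA) was found in 1 collagen window, that of Col6a1 (7.81% of all windows), and the TEAD site (GGAATG) in 5 (14.7%).

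The minor basement membrane chains rose in controls, while the main ones did not pass. Col4a3 had 51.1, 27.5 and 46.6 in control sham, 112, 123 and 74.6 in control TAC, 26.4, 46.5 and 47.0 in knockout sham and 54.1, 47.7 and 73.1 in knockout TAC, and it rose by a log2 difference of 1.30 ± 0.30 in controls (adjusted p = 0.0074). Col4a4 had 142, 86.4 and 126 in control sham, 195, 254 and 202 in control TAC, 96.6, 122 and 129 in knockout sham and 104, 111 and 122 in knockout TAC. Its rise in controls was 0.89 ± 0.20 (adjusted p = 0.0058). Col4a3, Col4a4 and Col4a5 are the chains that join in the basement membrane of the kidney glomerulus, and mutations in them cause Alport syndrome. Col4a5 was at 397, 328 and 283 in control sham, 623, 595 and 600.4 in control TAC, 404, 432 and 431 in knockout sham and 345, 424 and 453 in knockout TAC. The log2 difference of Col4a5 with TAC was 0.86 ± 0.14 in controls (adjusted p = 0.00099) and -0.06 ± 0.14 in knockouts (adjusted p = 0.95).

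Col4a1 and Col4a2, the chains of the common basement membrane network, were the most abundant collagens. Col4a1 measured 5914, 6445 and 8542 in control sham, 7251, 10063 and 6468 in control TAC, 4932, 5748 and 6293 in knockout sham and 5931, 6070.4 and 7116 in knockout TAC. Col4a2 measured 4598, 4985 and 6477, then 5816, 7592 and 5296, then 4155, 4607 and 5058, and last 4691, 4671 and 5511 in the same groups. For both genes each pair of groups compared here overlapped, and neither passed in any comparison, with log2 differences in controls of 0.18 ± 0.17 (adjusted p = 0.49) and 0.22 ± 0.16 (adjusted p = 0.35).

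Col12a1, a FACIT collagen of tendons and other tissues under tension that binds along type I fibrils, had the largest change of all collagens. Its values were 16.0, 9.49 and 5.09 in control sham, 7.12, 7.30 and 12.7 in knockout sham and 5.79, 28.8 and 5.45 in knockout TAC. In control TAC they were 173, 220.4 and 172, so that the lowest control TAC library was far above the highest of the other 9. Col12a1 rose by a log2 difference of 4.19 ± 0.52 in controls (adjusted p = 0.00012), against 0.17 ± 0.52 in knockouts (adjusted p = 0.97). It was lower in knockout TAC than in control TAC by -4.10 ± 0.52 (adjusted p = 0.00054). As with Col8a2, knockout TAC replicate 2 was the highest library of its group.

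Col22a1, known from tissue junctions such as that of muscle and tendon, had 9.59, 17.1 and 17.8 in control sham and 31.4, 71.1 and 44.8 in control TAC. In knockouts it had 8.14, 7.30 and 11.8 after sham and 9.66, 15.5 and 14.2 after TAC, all below the control TAC libraries. It rose by 1.63 ± 0.39 in controls (log2, adjusted p = 0.0092; adjusted p = 0.061 without control TAC replicate 2) and was lower after TAC in knockouts by -1.77 ± 0.39 (adjusted p = 0.014). Col16a1 had 131, 141 and 187 in control sham, 161, 259.6 and 214 in control TAC, 136, 135 and 150.2 in knockout sham and 101, 94.3 and 108 in knockout TAC. Its knockout TAC libraries were the 3 lowest of the 12, and the log2 difference from control TAC was -1.03 ± 0.19 (adjusted p = 0.0061). Col14a1, which like Col12a1 lies on fibrils, had 188, 146 and 139.9 in control sham and 257, 236 and 207 in control TAC, with 87.5, 116 and 119 in knockout sham and 169.9, 171 and 101 in knockout TAC. It passed in no comparison (adjusted p = 0.063 for TAC in controls and 0.051 for genotype after TAC), although its control TAC libraries lay above all others. Col20a1 ranged from 21.4 to 52.6 with overlap between all groups.

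Of the beaded filament chains, which join as type VI collagen, Col6a3 changed and its partners did not pass. Col6a3 was at 811, 816 and 657 in control sham and 1191, 1453 and 1093 in control TAC, against 532, 585 and 604 in knockout sham and 446, 524 and 606 in knockout TAC. Both knockout groups lay below both control groups. Its log2 difference with TAC was 0.71 ± 0.15 in controls (adjusted p = 0.0042) and -0.14 ± 0.15 in knockouts (adjusted p = 0.9), and knockout TAC was 2.37-fold lower than control TAC (log2 difference -1.24 ± 0.15, adjusted p = 0.00036).

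Col6a1 stood at 1623, 1508 and 1884 in control sham, 1589, 1897 and 1525 in control TAC, 1383, 1334 and 1395 in knockout sham and 1168, 1318 and 1343 in knockout TAC. Col6a2 stood at 1584, 1563 and 1896, then 1791, 1976 and 1510.3, then 1496, 1348 and 1551, and last 1391, 1409 and 1413. For both genes all knockout libraries lay below the control libraries of the same surgery, but neither genotype difference passed (after TAC, adjusted p = 0.072 for Col6a1 and 0.14 for Col6a2). Col6a6 had 189.7, 118 and 209 in control sham, 129, 75.2 and 119 in control TAC, 195, 146 and 214 in knockout sham and 77.2, 74.3 and 143 in knockout TAC. It was lower after TAC in both genotypes without passing, by -0.67 ± 0.28 in controls (adjusted p = 0.1) and -0.96 ± 0.28 in knockouts (adjusted p = 0.6).

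The multiplexins Col15a1 and Col18a1 encode basement membrane collagens, and the end of the Col18a1 chain gives endostatin, which inhibits vessel growth. Col15a1 had 1700.5, 1331 and 1725 in control sham, 1841, 2354 and 1682 in control TAC, 1258, 1486 and 1551 in knockout sham and 1362, 1395 and 1406 in knockout TAC. Col18a1 had 179, 199 and 287 in control sham, 189, 185 and 159 in control TAC, 183, 169 and 216 in knockout sham and 142, 145 and 165 in knockout TAC. Neither passed in any comparison, and for Col15a1 all knockout TAC libraries were below all control TAC libraries (log2 difference -0.48 ± 0.15, adjusted p = 0.053). Col13a1, a collagen that spans the cell membrane, was the tested collagen with the lowest difference with TAC in controls, at 22.4, 16.1 and 31.4 in sham and 11.9, 14.4 and 7.46 in TAC (-0.98 ± 0.39, adjusted p = 0.083), and at 18.3, 35.6 and 27.1 in knockout sham and 14.5, 27.7 and 17.4 in knockout TAC. Col7a1, the chain of anchoring fibrils, had 17.0, 12.3 and 36.5 in control sham, 21.6, 31.9 and 29.8 in control TAC, 20.3, 17.3 and 10.9 in knockout sham and 17.4, 5.55 and 13.1 in knockout TAC, and it passed in no comparison. Col23a1 ranged from 25.8 to 60.6 and Col28a1 from 6.33 to 23.3, with overlap between groups.

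The 14 collagens below the minimum had few reads in all 12 libraries together. Col9a1 had 0 reads. The cartilage collagens Col2a1, Col9a2, Col9a3, Col10a1 and Col11a1 had 5, 55, 70, 18 and 17 reads, and Col4a6, Col6a4, Col6a5 and Col17a1 had 61, 5, 59 and 66. Col19a1 had 3, Col24a1 15, Col25a1 43 and Col26a1 56 reads. Col11a1 had its highest value, 11.3, in control TAC replicate 2, with 2.16 and 1.86 in the other control TAC libraries and at most 0.905 in the rest. Col17a1 had 19.5 and 17.5 in control TAC replicates 1 and 2 and at most 9.05 elsewhere. Col17a1 and Col26a1 reached the minimum of 10 in 2 libraries and were just outside the tested set, while Col8a2 with 4 such libraries and Col12a1 with 6 were just inside.

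After sham surgery, knockout against control gave no collagen gene past the threshold by limma, with 0% of all tested genes called in either direction. The unadjusted p-value was under 0.05 for 5 of the 30 collagens and for 604 of all 13916 tested genes. The edgeR and DESeq2 fits called 0 collagens. Over all tested genes edgeR called 0.00% in either direction, and DESeq2 called 0.00719% higher and 0.00% lower. The knockout sham libraries lay below all control sham libraries for Col1a1, Col1a2, Col6a1, Col6a2, Col6a3 and Col14a1 and above them for Col4a5, against 4.68% of all tested genes lower and 4.94% higher. The median difference was -0.12 for the collagens and 0.03 for all tested genes.

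After TAC, 13 collagen genes were lower in knockouts than in controls, Col8a2 included, and none was higher, against 4.13% of all tested genes lower and 4.10% higher. These were Col1a1, Col1a2, Col3a1, Col5a1 and Col5a2 of the fibrillar class, Col4a4, Col4a5, Col8a1 and Col8a2 of the network class, Col12a1, Col16a1 and Col22a1 of the FACITs, and Col6a3. Their log2 differences ran from -4.10 for Col12a1 to -0.58 for Col4a5 (± 0.14, adjusted p = 0.022), with -0.94 ± 0.20 for Col4a4 (adjusted p = 0.011) and -0.59 ± 0.15 for Col3a1 (adjusted p = 0.024). The median was -0.65 for the 30 collagens and 0.01 for all tested genes. Knockout TAC libraries lay below all control TAC libraries for 20 collagens and above them for Col13a1 alone, against 15.5% and 15.6% of all tested genes. This comparison shares the control TAC libraries with the TAC comparison of controls, so that their gene lists are not independent of each other. Leaving out single TAC libraries reduced the count to 8 without control TAC replicate 2 (1.14% of all tested genes lower) or knockout TAC replicate 1 (1.16%), 9 without knockout TAC replicate 2 (1.03%) and 10 without control TAC replicate 1 (1.39%), and the genes lost were always among Col3a1, Col4a4, Col4a5, Col5a1 and Col22a1.

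The difference of the TAC effects, the change in knockouts minus that in controls, passed for 3 collagen genes, all with the smaller change in knockouts. Over all tested genes 0.295% passed with a negative difference and 0.0144% with a positive one. Col12a1 differed by -4.03 ± 0.74 (log2, adjusted p = 0.027), Col8a1 by -1.61 ± 0.30 (adjusted p = 0.032) and Col5a2 by -1.02 ± 0.18 (adjusted p = 0.025). Next came Col4a5 with -0.92 ± 0.20 (adjusted p = 0.059), Col6a3 with -0.84 ± 0.21 (adjusted p = 0.087) and Col1a2 with -0.63 ± 0.17 (adjusted p = 0.099), which did not pass. For Col4a1 the difference was -0.00 ± 0.25. The median was -0.54 for the tested collagens and -0.00 for all tested genes. With 1 library left out, the number of collagens that passed ranged from 0 to 9; it was 0 without replicate 1 or 3 of knockout sham, 1 or 2 of control TAC, or 1 of knockout TAC. It was 1 without replicate 2 of either sham group, 5 without knockout TAC replicate 3 and 9 without control sham replicate 1. The share of all tested genes that passed with a negative difference moved as well. It was between 0.0575% and 0.194% in the fits with no collagen, 1.37% without knockout TAC replicate 3 and 3.73% without control sham replicate 1.

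Transcript length and GC content moved with the groups. Across 13906 tested genes with known values, which are not independent replicates, the deviation of a library from the mean of all libraries had a Spearman correlation with transcript length of 0.334 to 0.428 in control TAC and of -0.352 to 0.143 in the other libraries. With GC content, the correlation was -0.364 to -0.249 in control TAC and -0.2345 to -0.0317 in knockout TAC. It was 0.0120 to 0.4900 in the sham libraries. Length and GC content thus had opposite signs in control TAC. Tested collagens are long, with a median transcript of 6084 bases against 3128 for all tested genes, and have a median GC content of 56.2% against 50.1%. When a smooth trend over both properties was subtracted from each library, 9 collagens rose with TAC in controls (4.47% of all genes) and 1 fell (4.39%). Col1a1 (0.41, adjusted p = 0.034) and Col16a1 (0.67, adjusted p = 0.026) then passed, Col6a6 fell (-0.96, adjusted p = 0.024), and Col3a1, Col4a4, Col6a3 and Col22a1 no longer passed (adjusted p = 0.1, 0.066, 0.063 and 0.052). After TAC, 8 collagens were lower in knockouts (1.41% of all genes) and none was higher (1.24%), and Col3a1, Col4a4, Col4a5, Col5a1 and Col22a1 were the ones lost. Their log2 differences became -0.40, -0.47, -0.31, -0.32 and -1.37, from -0.59, -0.94, -0.58, -0.67 and -1.77, with adjusted p = 0.17, 0.15, 0.19, 0.15 and 0.085. The differences of Col12a1, Col8a1 and Col5a2 between TAC effects became -3.42, -1.37 and -0.70, with adjusted p = 0.12, 0.12 and 0.16. No collagen passed in this comparison, where 0.129% of all genes passed with a negative difference.

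**Figure D4:**
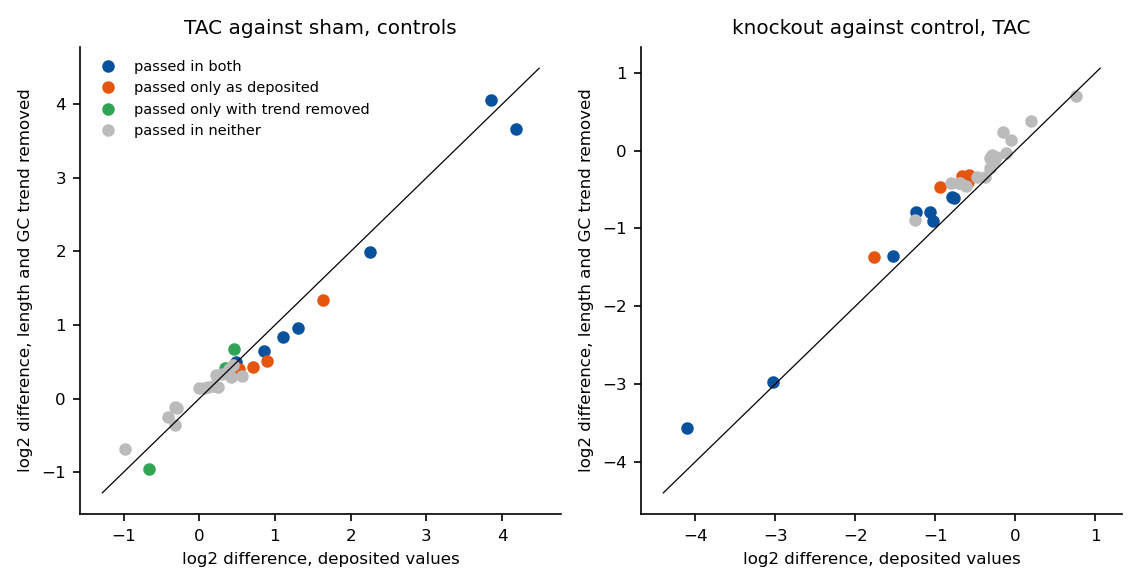
Log2 difference of each tested collagen gene from the deposited values (horizontal axis) and after the trend with transcript length and GC content was removed (vertical axis), for TAC against sham in controls (left) and knockout against control after TAC (right); the line marks equal values. Col12a1 moves from 4.19 to 3.67 on the left and from -4.10 to -3.56 on the right, and most points keep their sign.

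Pairs of chains of the same collagen type kept their ratio in some cases and not in others. Ratios of reads per kilobase of transcript were taken within each library and are given without a test. The ratio of Col4a1 to Col4a2 lay between 1.16 and 1.29 in all 12 libraries, and that of Col6a2 to Col6a1 between 0.860 and 1.05. Col1a1 to Col1a2 lay between 0.738 and 1.05, with the highest value in control sham replicate 3. In contrast, Col5a2 to Col5a1 was 1.38, 1.20 and 1.53 in control TAC and 1.07, 1.19 and 0.861 in knockout TAC. The sham libraries of both genotypes had 0.625 to 0.900, so that knockout TAC was mostly above them and just below control TAC. Col6a3 to Col6a1 was 0.304, 0.311 and 0.291 in control TAC and 0.142 to 0.220 elsewhere. Col8a2 to Col8a1 was 0.0934, 0.0972 and 0.0802 in control TAC and at most 0.0692 elsewhere, that highest value being knockout TAC replicate 2. Col12a1 to Col14a1, a pair of fibril-surface collagens that do not share a molecule, was 0.377, 0.524 and 0.465 in control TAC and at most 0.0947 elsewhere. Since these chains differ in transcript length and GC content, the ratios carry both trends described above, but not all in the same direction. The first chain is the longer for Col6a3 to Col6a1 (10106 against 4100 bases) and Col12a1 to Col14a1 (11511 against 6457). It is the shorter for Col5a2 to Col5a1 (6625 against 8406) and Col8a2 to Col8a1 (4332 against 5108). In GC content the first chain is the lower for Col6a3 to Col6a1 (54.5% against 56.7%) and Col12a1 to Col14a1 (48.3% against 49.7%). It is also the lower for Col5a2 to Col5a1 (49.6% against 58.0%), and the higher for Col8a2 to Col8a1 (59.1% against 46.8%). With both trends removed, the log2 difference with TAC in controls was 0.84 for Col5a2 and 0.16 for Col5a1.

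**Figure D5:**
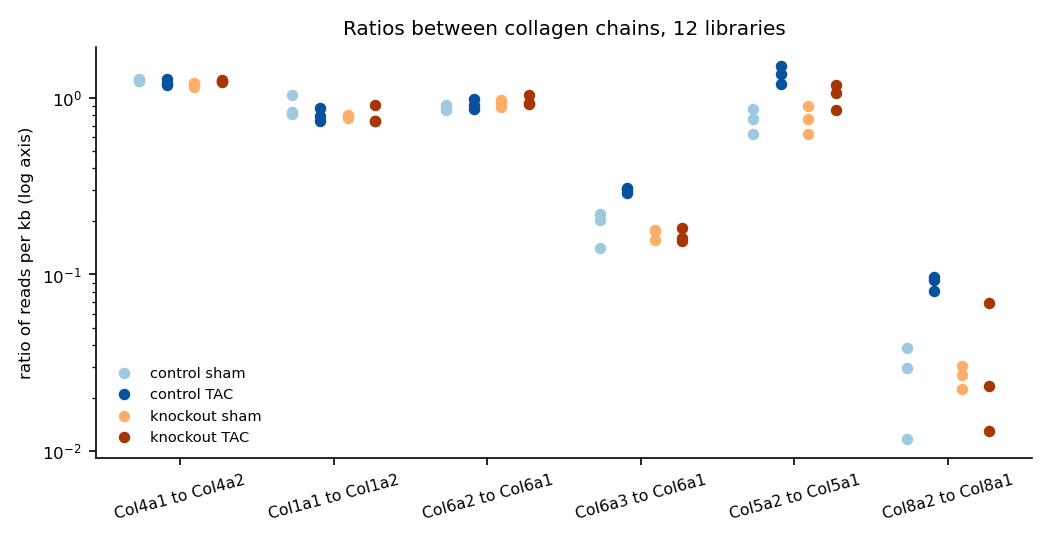
Ratio of reads per kilobase of transcript between pairs of collagen chains (vertical log axis) in each of the 12 libraries, coloured by group. The Col4a1 to Col4a2 points stay between 1.16 and 1.29, while Col6a3 to Col6a1 reaches 0.291 to 0.311 in control TAC and 0.142 to 0.220 elsewhere.

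Several collagen genes are neighbours in the genome (GENCODE M21, GRCm38). Col4a1 (chr8:11198423-11312826, minus strand) and Col4a2 (chr8:11312805-11449287, plus strand) face away from each other with RefSeq starts 21 bases apart, so that their promoter windows share 78 bases. The Col4a2 window at chr8:11312555-11312854 on the plus strand is shown with the same motifs in capitals. It was chosen because it holds the stretch shared by the windows of the most abundant collagen pair, whose ratio varied least. What this stretch does was not tested.
Col4a2: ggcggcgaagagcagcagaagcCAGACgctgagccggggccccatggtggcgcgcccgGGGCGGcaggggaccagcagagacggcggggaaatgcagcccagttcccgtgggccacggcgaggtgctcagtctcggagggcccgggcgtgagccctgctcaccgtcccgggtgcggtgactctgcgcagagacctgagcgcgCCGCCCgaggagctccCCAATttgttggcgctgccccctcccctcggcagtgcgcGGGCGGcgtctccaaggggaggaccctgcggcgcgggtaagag
It holds 3 GC box matches, a CCAAT box match 32 bases before the start and a SMAD-binding element match 228 bases before the start. Of these, only the GC box match that begins 7 bases after the start lies wholly within the stretch shared with the Col4a1 window. Col4a3 and Col4a4 on chromosome 1 are divergent as well, with 71 bases between their annotated starts, and both rose with TAC in controls (1.30 and 0.89 on the log2 scale). Col4a5 and Col4a6 on chromosome X also face away from each other, with starts 1343 bases apart, but Col4a6 was below the minimum (1.02 to 8.24) while Col4a5 rose. Col3a1 and Col5a2 lie tail to tail on chromosome 1 with 24614 bases between them. Whether reads were counted by strand is not given in the sources used here, so that reads from overlapping genes on opposite strands, such as the first bases of Col4a1 and Col4a2, may not be told apart.

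The 3′ untranslated regions of the collagens were searched for the site of miR-29, a microRNA family known to target collagen transcripts. The 3 mature family members from RefSeq share 1 seed, bases 2 to 8, shown in capitals.
miR-29a-3p: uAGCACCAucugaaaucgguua
miR-29b-3p: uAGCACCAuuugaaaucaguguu
miR-29c-3p: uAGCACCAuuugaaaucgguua
The complement of this seed (TGGTGCT) was found in 24 of 44 collagen genes (54.5%), at 45 places, and in 13.7% of the 21849 genes with a 3′ untranslated region in GENCODE M21. The median length of that region was 1082 bases for collagens and 1035 for all genes. The first match of each of 5 collagens that rose is given here on the strand of the transcript, with the seed match in capitals. These lie at chr1:45348966-45348989 for Col3a1 (plus strand), chr1:45374965-45374988 for Col5a2 (minus), chr16:57624705-57624728 for Col8a1 (minus), chr1:90767411-90767434 for Col6a3 (minus) and chrX:141688237-141688260 for Col4a5 (plus).
Col3a1: cttcaaaatgtctcaaTGGTGCTa
Col5a2: acttttcttttaatgaTGGTGCTa
Col8a1: actgtatattctaccaTGGTGCTa
Col6a3: acgtgacctgtcaataTGGTGCTa
Col4a5: ccactgctcccaccaaTGGTGCTa
An a follows each match printed, opposite the first base of the microRNA, but it follows only 19 of the 45 matches in collagens and none of the 8 in Col4a3, Col4a4 and Col22a1, the other collagens with a match that rose. Among the tested collagens, 8 of 17 with a match and 3 of 13 without one rose with TAC in controls. The latter 3 include Col8a2, which met the minimum only through control TAC and therefore had to differ. Over all tested genes with such a region, 16.5% of 2186 with a match and 9.99% of 10347 without one rose, and the region was longer in the former, with a median of 2620 bases against 1204. Col1a2 and Col12a1 rose and hold no match, and Col8a2, given without a test, holds none either. The microRNAs themselves were not measured here, and a match of letters does not show that a site is used.

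Genes that make, cut, bind and degrade collagen were described from lists of known members. Counts in these lists stand against 11.0% of all tested genes that rose and 10.6% that fell with TAC in controls, and 4.10% that were higher and 4.13% that were lower in knockouts after TAC. Of 20 tested genes for hydroxylation, glycosylation and folding, 3 rose and 3 fell with TAC in controls, and after TAC 1 was higher and 2 were lower in knockouts. P3h2, a prolyl 3-hydroxylase, rose from 32.7 ± 3.09 (SD, n = 3) to 93.1 ± 12.5 in controls (log2 difference 1.48 ± 0.23 (SE), adjusted p = 0.00077) and P4ha1, a subunit of the prolyl 4-hydroxylase that stabilises the helix, from 671 ± 79.6 (SD) to 1068 ± 258 (adjusted p = 0.011). P3h4 fell by 0.96 and Crtap by 0.62 on the log2 scale (adjusted p = 0.00034 and 0.0067). The median of this list was -0.01.

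Of 12 tested genes for procollagen cleavage and crosslinking, 4 rose with TAC in controls and none fell, with a median of 0.28, and 3 were lower in knockouts after TAC. Lox, the enzyme lysyl oxidase that starts crosslinks between collagen molecules, rose from 33.2 ± 3.82 (SD, n = 3) to 120.1 ± 39.5 in controls (log2 difference 1.77 ± 0.30 (SE), adjusted p = 0.0012), and knockout TAC was at 45.6 ± 12.5 (adjusted p = 0.014 against control TAC). Adamts2, which removes the amino-terminal propeptide of fibrillar procollagens, rose by 0.56 (adjusted p = 0.0047), Loxl2 by 0.81 (adjusted p = 0.0069) and Loxl3 by 0.95 (adjusted p = 0.0085). Of 9 tested collagen receptors, 4 rose and none fell (median 0.43), and 2 were lower in knockouts after TAC. The 4 that rose were Mrc2, which takes up collagen into cells (0.48, adjusted p = 0.028), the collagen-binding kinase Ddr2 (0.43, adjusted p = 0.035), and the integrin chains Itga11 (0.89, adjusted p = 0.036) and Itgb1 (0.48, adjusted p = 0.038). Itga2, also among the 9 and in their median, met the minimum only through control TAC (11.9, 17.5 and 18.6) and passed in no comparison. Among 6 tested collagenolytic proteases, Mmp2 (0.52, adjusted p = 0.02), Ctsk (1.06, adjusted p = 0.021) and Fap (0.98, adjusted p = 0.039) rose, Mmp9 fell (-1.78, adjusted p = 0.0057), and 1 was lower in knockouts after TAC. No gene of these 4 lists passed in the difference of TAC effects.

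Markers of the cells that could supply collagen moved with it in part. Of 9 tested markers of activated fibroblasts, against the same shares of 11.0% and 10.6% of all tested genes, 8 rose and 1 fell with TAC in controls, 6 were lower in knockouts after TAC (4.13% of all genes) and 3 passed in the difference of TAC effects (0.295%). Their summed level was 2251 to 2807 in control sham, 6819 to 8479 in control TAC, 2029 to 3424 in knockout sham and 2299 to 3369.6 in knockout TAC. Cilp, a matrix protein of activated fibroblasts, rose from 129 ± 6.73 (SD, n = 3) to 1912 ± 386 and Postn, or periostin, from 464 ± 109.9 to 2600.0 ± 255, while knockout TAC was at 260.5 ± 113 and 810.1 ± 252. Cthrc1, another marker of this list, had 0 reads in all libraries, and Fap stands on this list and on that of proteases. Of 10 general fibroblast markers, 2 rose and 2 fell in controls and 3 were lower in knockouts after TAC, beside the shares just given. Their sum was 27366 to 34217 in control sham, 26067 to 28214 in control TAC, 27678 to 29605 in knockout sham and 20787 to 27652 in knockout TAC. Most of that sum was Gsn, or gelsolin, which fell in controls from 20804 ± 3291 (SD, n = 3) to 15521 ± 944 (adjusted p = 0.036), while Mfap5 rose from 256 ± 71.8 to 623 ± 100.3 (adjusted p = 0.0017) and Pi16 from 802 ± 89.6 to 1306 ± 131 (adjusted p = 0.0053). The part of these cells in the collagen differences was not tested.

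The other cell types were described in the same way, against the same shares over all tested genes (11.0% rose and 10.6% fell in controls, 4.10% were higher and 4.13% lower in knockouts after TAC), with sums for controls after sham and after TAC and then for knockouts after sham and after TAC. Of 10 smooth muscle and pericyte markers, 2 fell with TAC in controls, and the sums were 19956 to 22315, 18097 to 21040.3, 19499.6 to 20729.5 and 20125 to 20877. Of 10 endothelial markers 1 fell, with sums of 19632 to 31403, 17680.3 to 18573, 19659 to 21075 and 19053 to 21358. No macrophage marker of 10 passed (2728 to 3717, 2202 to 3710.4, 2367 to 2655 and 2213 to 3055). None of these 30 markers rose in controls or passed for genotype after TAC. Schwann cell markers gave 2 that fell of 8 (504 to 796, 448 to 668, 636 to 655 and 397 to 552, with Foxd3 at 0). Mesothelial markers, of the outer heart surface, gave 5 that fell of 9, and 2 were higher in knockouts after TAC (238 to 584, 118 to 229.7, 214 to 428 and 210.5 to 447). Among the 9, Upk1b met the minimum only through control sham, and Bnc1 only with both control sham and knockout TAC. Neither passed in any comparison. Of the cartilage and valve markers, 5 of 8 were under 10 in every library and 3 were tested. One of these, Chad, was at 19.5, 16.5 and 16.8 in control TAC and at most 8.48 elsewhere, so that it met the minimum through control TAC alone and its call is not used. The other tested markers did not pass for TAC in controls, and the list had sums of 68.2 to 69.5, 65.3 to 139.5, 34.4 to 56.6 and 55.5 to 62.8. Cardiomyocyte markers, high in every library of this muscle tissue, gave 1 that rose and 4 that fell of 10 in controls, and 5 higher and 1 lower in knockouts after TAC (1047203 to 1103526, 891998 to 966517, 1184398 to 1252806 and 1077240.4 to 1165628). The part of these cell types in the collagen differences was not tested.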

How the data were processed

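The authors deposited 1 table of signal values, the reads per gene divided by 1 size factor per library, for 56350 Ensembl gene IDs in 12 libraries. Per the labels, TRIzol was used to extract the RNA and a stranded mRNA kit to build the libraries. The submitters' processing notes name STAR, SAMtools, featureCounts and GRCm38.p6. Not given in the sources used here are the versions, annotation, strand setting and means of normalisation. Every deposited value was a whole multiple of 1 step per library (100.0% within 0.01), so that whole read counts could be recovered; intervals were not added to them. Gene IDs were matched to GENCODE M21 (55480 with a symbol, 55180 with the same version).

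The deposited values were tested as log2(value + 1) with limma 3.58.1 (R 4.3.3, trend and robust moderation), 4 group means and 12 libraries, on 13916 genes with at least 10 in at least 3 libraries. Values with a pseudocount understate the change of low genes. P-values were adjusted by Benjamini-Hochberg at 0.05 within each of 5 comparisons over all tested genes. Between libraries of the same group the chi-square per gene was 5.55 to 59.1, so none was counted as a duplicate. Length is that of the longest coding transcript, and the length and GC trend was removed by loess (span 0.5; values known for 99.93% of genes). The collagen genes, their classes and the other gene lists were chosen with earlier results of these data known. Values in every library are given for collagens that passed in any comparison, for a set of well-known chains and for the 5 others with the smallest p in the difference of TAC effects; from other lists, up to 4 members with the smallest p for TAC in controls could be named. Col11a1 and Col17a1 were named for their values after these were seen. Alternatives were edgeR 4.0.16 and DESeq2 1.42.0 on recovered counts, TMM scaling, pseudocounts of 0.5 and 5, other filters, a replicate block, the compared groups alone, and each library left out. The fits were tested on simulated data. Tables and plots used Python 3.11.15, pandas 2.3.3, numpy 2.4.6 and matplotlib 3.10.9.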

Additional observations from a re-analysis of the deposited data

Results flagged for a closer look

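For 3 collagen genes the change with TAC differed between control and knockout mice by the test of the difference itself (limma, adjusted over all tested genes). The difference, knockout minus control on the log2 scale, was -4.03 for Col12a1, -1.61 for Col8a1 and -1.02 for Col5a2, each with the smaller change in knockouts. In controls these genes rose by 4.19, 2.26 and 1.11 with all 3 TAC libraries above all 3 sham libraries, and in knockouts their differences were 0.17, 0.65 and 0.09. The Col12a1 difference rests on low values outside control TAC, from 5.09 to 28.8. All 3 calls are sensitive to single libraries and to the length and GC trend, as the next part gives. The cause was not tested.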

How the results depend on the processing

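Of 1121 values of single collagens under alternatives (52 gene results), 1027 kept their direction and side of the threshold, 55 no longer passed, 33 newly passed and 6 changed sign. The sign changes were in genes near 0 for TAC in controls: Col4a1 at -0.01 without control TAC replicate 2 (-0.01 to 0.33 with single libraries left out), and Col6a1, at -0.00, gave 0.00 with DESeq2, 0.14 with the trend removed and 0.09, 0.03 and 0.06 without control sham replicate 3, control TAC replicate 1 and control TAC replicate 3 (-0.10 to 0.09 with single libraries left out). Col12a1, Col4a3, Col4a5, Col5a2 and Col8a1 rose in controls under every alternative run, and Col12a1, Col16a1, Col1a1, Col1a2, Col5a2, Col6a3 and Col8a1 were lower in knockouts after TAC under every one. Col8a2 is left out here because it met the minimum only through control TAC, though the counts include it.

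For TAC in controls, 9 to 14 collagens rose and 0 to 1 fell when single libraries were left out. Of all tested genes, 5.26% to 14.4% rose and 5.87% to 11.9% fell in those fits. Col6a6 was the 1 that fell with the trend removed, with the replicate block and without control sham replicate 2. For genotype after TAC, 8 to 17 were lower with single libraries left out (1.03% to 7.74% of all genes), 8 with the trend removed, 14 with edgeR (4.35%) and 16 with DESeq2 (6.13%). For the difference of TAC effects the range was 0 to 9 (0.0575% to 3.73% of all genes); edgeR called 2 (not Col12a1; 0.273%), DESeq2 5 (without an adjusted p for Col12a1; 1.98%) and the fit with the trend removed 0. Col12a1, Col5a2 and Col8a1 lost that call in 7, 6 and 6 of 12 such fits, with adjusted p up to 0.11, 0.11 and 0.13. Fits of only the groups compared exist for every comparison but this difference.

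Without control sham replicate 3, which stood apart, 14 rose in controls (8.60% of all genes, against 11.0% with it), 17 were lower in knockouts after TAC (7.74%, against 4.13%) and 3 passed in the difference (0.553%, against 0.295%). The main fit did not pair libraries by replicate number. Deviations of same-numbered libraries correlated by -0.072 to 0.249 (median 0.028) and of others by -0.255 to 0.156 (median -0.0). With 3 libraries per group and overlapping ranges, these correlations cannot show whether the numbers pair the libraries. With the replicate number as a block, 11 collagens rose (11.8% of all genes) and 1 fell (10.9%) in controls. In that fit 14 were lower in knockouts after TAC (4.38%) and 3 passed in the difference. For that difference, 0.331% of all genes passed with a negative sign and 0.00719% with a positive one. Depth limits the 14 untested collagens, where a count of 0 cannot be told from a few reads.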
